A study of Mus musculus with 14 samples.

Results

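The 9 genes described here encode secreted glycoproteins of the extracellular matrix: Fn1 (fibronectin), Tnc (tenascin C), Thbs1 and Thbs2 (thrombospondins), Postn (periostin), Sparc, Fbln1 and Fbln2 (fibulins) and Tinagl1. They were chosen by name as matricellular and matrix glycoproteins. All 9 were found among the 27179 genes of the keratinocyte table and the 24411 genes of the epidermis table. RNA was sequenced from newborn mice that lack exon 13 of Trp63 in KRT14-expressing cells and from mice that keep it. Exon 13 encodes the alpha C-terminus of p63, a transcription factor of stratified epithelia. The KRT14-Cre;Trp63-Ex13fl/fl genotype (p63beta) was compared with Trp63-Ex13fl/fl (p63alpha), so the floxed alleles are common to both and the Cre transgene is present only in p63beta. The KRT14 promoter drives Cre in basal keratinocytes and their descendants, and fibroblasts, melanocytes, vessels and leukocytes are outside its usual range. Cultured proliferating keratinocytes, grown in low-calcium medium, gave 3 p63beta and 3 p63alpha libraries. Epidermis taken off the dermis with trypsin gave 4 p63beta and 4 p63alpha libraries. The labels do not say that libraries came from separate animals, so p-values measure only the spread between these libraries.

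Fibronectin assembles into fibrils that cells grip through integrins, and fibulins join fibronectin, laminin and nidogen in basement membranes and elastic fibres. Tenascin C, the thrombospondins, periostin and Sparc are called matricellular proteins, because they modulate adhesion and signalling more than they build structure. In skin most of these proteins are deposited at or below the epidermal basement membrane, and several are known for their induction in wounds and in cultured cells.

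Between 20688027 and 30066041 read pairs were counted per keratinocyte library. In epidermis the estimated counts per library summed to between 21290068 and 44909629. Levels are in CPM, counts scaled by library size and TMM factors. The 8 keratinocyte markers summed to 29050 to 38790 CPM in p63beta cultures and 29710 to 41760 CPM in p63alpha cultures. In epidermis they summed to 17420 to 32230 CPM in p63beta and 21020 to 24590 CPM in p63alpha. Trp63, whose reads outside exon 13 do not show the deletion, averaged 364 ± 24.3 CPM in p63beta and 183 ± 8.13 CPM in p63alpha keratinocytes (SD, n = 3 each). Keratinocyte library p63beta replicate 3 stood apart. Its 10 heart muscle markers summed to 3419 CPM, against 106.5 to 215 CPM in the other 5 libraries, and 9 of the 10 were highest there. Its 8 endothelial markers summed to 48.7 CPM, against 10.5 to 18.9 CPM elsewhere. Keratinocyte results are therefore given with and without it.

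Tinagl1 encodes a secreted matrix glycoprotein with a cathepsin-like domain that lacks protease activity. It lies on the minus strand at chr4:130165600-130175122 (mm10). Its annotation holds 2 starts with different non-coding first exons and the same coding sequence. In epidermis the start closer to the coding exons carried nearly all of its transcripts. That transcript held 99.7% ± 0.491 of the Tinagl1 TPM (length-scaled transcript abundance, summing to the same total in every library) in p63beta and 99.3% ± 0.915 in p63alpha (SD, n = 4 each). The 2 stretches below are shown because they lie before these starts, on the GRCm38 minus strand. The first, from RefSeq, is the 250 bases at chr4:130175123-130175372 before the little-used start. Its capitals mark a loose match to the AP-1 motif 174 bases before that start. The search pattern was TGANTCA, where N is any base and here is A. Capitals also mark a TEAD motif (GGAATG, here on the opposite strand) 149 bases before the same start. The second stretch is the 99 bases at chr4:130174803-130174901 between the 2 first exons, directly before the main start.
Tinagl1 before the little-used start: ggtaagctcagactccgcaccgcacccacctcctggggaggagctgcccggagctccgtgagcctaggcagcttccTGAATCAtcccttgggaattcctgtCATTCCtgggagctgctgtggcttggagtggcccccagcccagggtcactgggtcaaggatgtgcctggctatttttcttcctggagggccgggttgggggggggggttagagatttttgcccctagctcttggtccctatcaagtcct
Tinagl1 before the main start: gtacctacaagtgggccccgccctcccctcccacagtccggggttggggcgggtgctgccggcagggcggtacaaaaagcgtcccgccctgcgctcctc
Neither motif was in the 300-base window around the main start. The 2 patterns were present in 7.81% and 14.7% of all 32851 RefSeq promoter windows, for AP-1 and TEAD in that order. Both strands were searched, with any base at N. Among the 7 members with a window, Tinagl1 alone held either. The core spacing of the p53 family site was in windows of all 7 and in 70.2% of windows overall. Fn1 and Thbs1 had no window. These matches describe letters and not occupied sites.

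Fn1, Postn and Fbln2 have alternative exons, and 1 of each is given because the epidermis transcript table splits each gene by them. The EDA exon of Fn1 adds a type III repeat that is typical of fibronectin made by tissues and is left out of plasma fibronectin. It has 270 bases, read on the minus strand at chr1:71603660-71603929. Postn varies in its C-terminal region, here by an exon of 81 bases on the plus strand at chr3:54380412-54380492. Fbln2 has an optional exon of 141 bases on the plus strand at chr6:91259630-91259770. All are from GENCODE M21 on GRCm38.
Fn1 EDA exon: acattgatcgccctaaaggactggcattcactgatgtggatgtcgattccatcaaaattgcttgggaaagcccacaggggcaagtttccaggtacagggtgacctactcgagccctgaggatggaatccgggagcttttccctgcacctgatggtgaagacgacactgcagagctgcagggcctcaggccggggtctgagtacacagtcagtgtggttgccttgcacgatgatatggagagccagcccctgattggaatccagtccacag
Postn 81-base exon: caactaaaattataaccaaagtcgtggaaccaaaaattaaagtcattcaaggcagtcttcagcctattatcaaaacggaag
Fbln2 141-base exon: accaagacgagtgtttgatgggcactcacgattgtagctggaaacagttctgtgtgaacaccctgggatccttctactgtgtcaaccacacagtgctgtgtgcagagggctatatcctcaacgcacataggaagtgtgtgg
Each of these exons is a whole number of codons, with 90 in the EDA exon.

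In keratinocytes the members spanned a wide range of levels. In FPKM, which scales fragments by gene length and library size, Thbs1 was highest in both genotypes, with 637 ± 186 in p63beta and 652 ± 41.5 in p63alpha (SD, n = 3 each). Thbs1 ranked number 72 of the 19426 genes above 0 in p63beta cultures and number 75 of 19079 in p63alpha cultures. Tinagl1 and Sparc came next. Tinagl1 had 246 ± 8.36 FPKM in p63beta and 225 ± 50.9 FPKM in p63alpha. Sparc had 224 ± 33.2 FPKM in p63beta and 229.5 ± 7.44 FPKM in p63alpha. The ranges of Tinagl1 and Sparc overlapped within each genotype, so their order is not set. Tnc and Fn1 followed and also overlapped each other, with means of 112 and 106 FPKM in p63beta and 102 and 101 FPKM in p63alpha. The other members were far lower, at 8.48 FPKM for Fbln1, 5.57 for Fbln2, 2.63 for Postn and 0.472 for Thbs2 in p63beta. In p63alpha the same 4 had 8.52, 3.33, 1.37 and 0.444 FPKM.

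The order was different in epidermis, where levels are in TPM. The tools behind the 2 tables differ, so levels are ranked only within each. Postn led with 133.5 ± 47.5 TPM in p63beta and 173 ± 8.24 TPM in p63alpha (SD, n = 4 each), although it was the second lowest in culture. Sparc was next, with 82.3 ± 14.3 TPM in p63beta and 99.8 ± 40.8 TPM in p63alpha. Thbs1, which led in culture, had 39.4 ± 16.0 TPM in p63beta and 27.3 ± 7.11 TPM in p63alpha, and its range overlapped that of Fbln1 in p63beta and that of Fn1 in p63alpha. Thbs2 was again lowest, with 2.74 ± 2.20 TPM in p63beta and 1.23 ± 0.927 TPM in p63alpha. Tinagl1 was above Fn1 in mean in p63beta, with overlapping ranges, and below Fbln2 in p63alpha, also with overlapping ranges.

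Loss of exon 13 gave no called change in any member in either kind of sample with edgeR's quasi-likelihood test. A gene was called at a Benjamini-Hochberg adjusted p under 0.05 over all genes tested. In keratinocytes 0 of 9 members were called and 0 had an unadjusted p under 0.05, against a background of 0.101% of 13820 genes called and 6.85% with an unadjusted p under 0.05. DESeq2 called 0 members there too, with 1.53% of its genes called. Without p63beta replicate 3, again 0 members were called, beside 0.00703% of all genes. With the replicate number as a block, 0 members and 0.268% of genes were called. In epidermis 0 of 9 members were called by edgeR, beside 0.232% of 13796 genes. There 2 members, Tinagl1 and Fbln2, had an unadjusted p under 0.05, beside 4.64% of all genes. DESeq2 called 1 member in epidermis, Tinagl1, beside 0.987% of its genes. The members' median log2 fold change (p63beta over p63alpha) was 0.09 in keratinocytes, -0.09 without replicate 3, and -0.14 in epidermis. Over all genes tested it was -0.00 with all libraries in both systems.

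**Figure D1:**
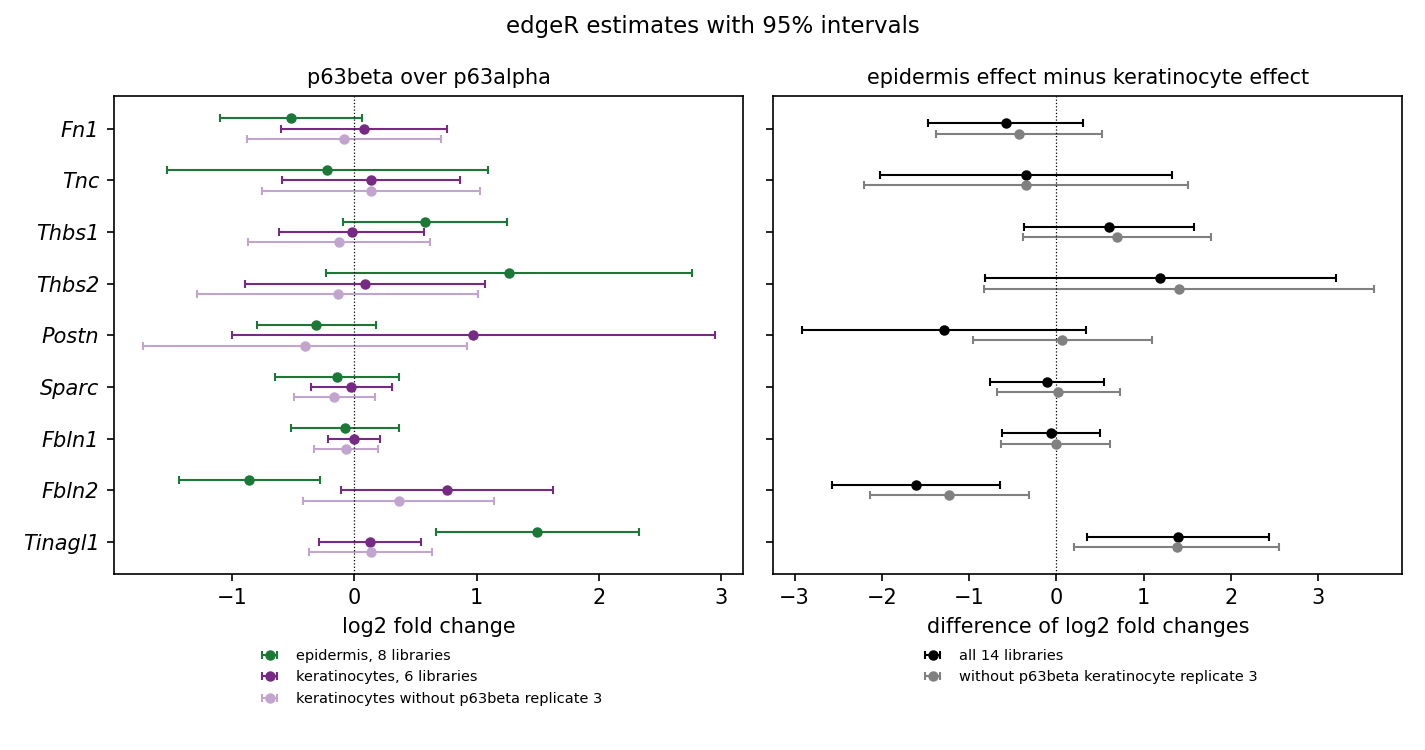
Left, edgeR log2 fold changes (p63beta over p63alpha, x axis) of the 9 genes in epidermis and in keratinocytes with and without p63beta replicate 3; right, the epidermis effect minus the keratinocyte effect. Bars are 95% intervals, and those of Tinagl1 (above 0) and Fbln2 (below 0) in epidermis and in the difference do not reach 0, though neither gene passes the adjusted threshold.

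Among the 9 genes, Tinagl1 had the lowest p in epidermis with all 8 libraries in the edgeR fit by genotype alone. In CPM its level was 51.0, 21.6, 28.8 and 21.6 CPM in KO2, EP10, EP11 and EP12 of p63beta, against 8.35, 16.7, 5.98 and 12.5 CPM in EP07, EP08, WT3 and EP09 of p63alpha. These are the names the libraries have in the tables, and epidermis values below keep this order. Every p63beta library lay above every p63alpha library, with KO2 far the highest and WT3 the lowest. Tinagl1 was the 1 member of 9 without overlap in epidermis, beside 3.07% of all genes tested. Its log2 fold change was 1.498 (SE 0.37, 95% interval 0.67 to 2.33), a fold of 2.83, with an edgeR adjusted p of 0.284. It did not pass the threshold.

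The call on Tinagl1 depended on the tool. DESeq2 on the same counts gave a log2 fold change of 1.51 with an adjusted p of 0.00999. The authors' deposited table, also from DESeq2, lists 1.51 with an adjusted p of 0.0155, beside 0.896% of its genes past the threshold. Over the 17 alternatives the adjusted p ranged from 0.00999 to 0.816 and the log2 fold change from 0.93 to 1.78. The column names of KO2 and WT3 carry another code than those of the EP libraries. In the 6 EP libraries alone the log2 fold change was 0.93 with an edgeR adjusted p of 0.815. With that code as a covariate over all 8 libraries it was 1.44 with an edgeR adjusted p of 0.450. In that covariate fit Fbln2 had a lower unadjusted edgeR p (0.00280) than Tinagl1 (0.00635). In the 6 EP libraries Thbs2 (1.23), Thbs1 (0.955) and Fbln2 (-0.955) had log2 fold changes of larger size than that of Tinagl1, and Fbln2 and Thbs1 lower p-values. The place of Tinagl1 among the members thus turns on KO2 and WT3. Without EP08, Thbs2 (1.85) also exceeded Tinagl1 (1.78). KO2 and WT3, the only 2 with the other code, had 51.0 CPM in p63beta and 5.98 CPM in p63alpha.

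Melanocyte markers differed in the same direction as Tinagl1 in epidermis. The 5 markers (Dct, Tyr, Tyrp1, Pmel, Mlana) summed to 294 to 431 CPM in p63beta and 106 to 234 CPM in p63alpha. All 5 had a log2 fold change above 0, with a median of 1.08. EdgeR called 0 of them, with all 5 at an unadjusted p under 0.05, beside 4.64% of all genes. DESeq2 called Dct and Tyrp1, beside 0.987% of its genes. Pmel was also among the 3 genes whose centred log2 CPM lay closest to Tinagl1 over the 8 libraries, with a root-mean-square difference of 0.35, after Stac2 (0.08) and Ptgds (0.33). The part of melanocytes in the Tinagl1 difference was not tested. In bulk RNA, fewer cells of a type and less RNA per cell cannot be told apart. An annotated non-coding gene, Gm52490, overlaps the start side of Tinagl1, and no source used here says whether the epidermis estimates used strand.

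In keratinocytes, where Tinagl1 was abundant, no such difference was present in the values with all libraries. The p63beta replicates 1, 2 and 3 had 540, 541 and 529 CPM, and the p63alpha replicates 622, 397.5 and 451 CPM. The p63beta values were tight and lay inside the p63alpha range. For Tinagl1 in culture the log2 fold change was 0.13 (SE 0.17, 95% interval -0.29 to 0.55), with an edgeR adjusted p of 0.962, and it was 0.13 without p63beta replicate 3. Without p63alpha replicate 1, the highest library, it was 0.32 (95% interval 0.10 to 0.53, unadjusted p 0.0119, edgeR adjusted p 0.219). In that fit 15.1% of all genes had an unadjusted p under 0.05. The epidermis effect exceeded the keratinocyte effect by 1.39 on the log2 scale (SE 0.49, 95% interval 0.35 to 2.44). The interaction had an unadjusted p of 0.0128 and an adjusted p of 1 in edgeR. Here 0 members and 0.0% of 14740 genes were called for an interaction, and 2 members (Tinagl1 and Fbln2) beside 4.19% of genes had an unadjusted p under 0.05. No other tool was run for the interaction.

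**Figure D2:**
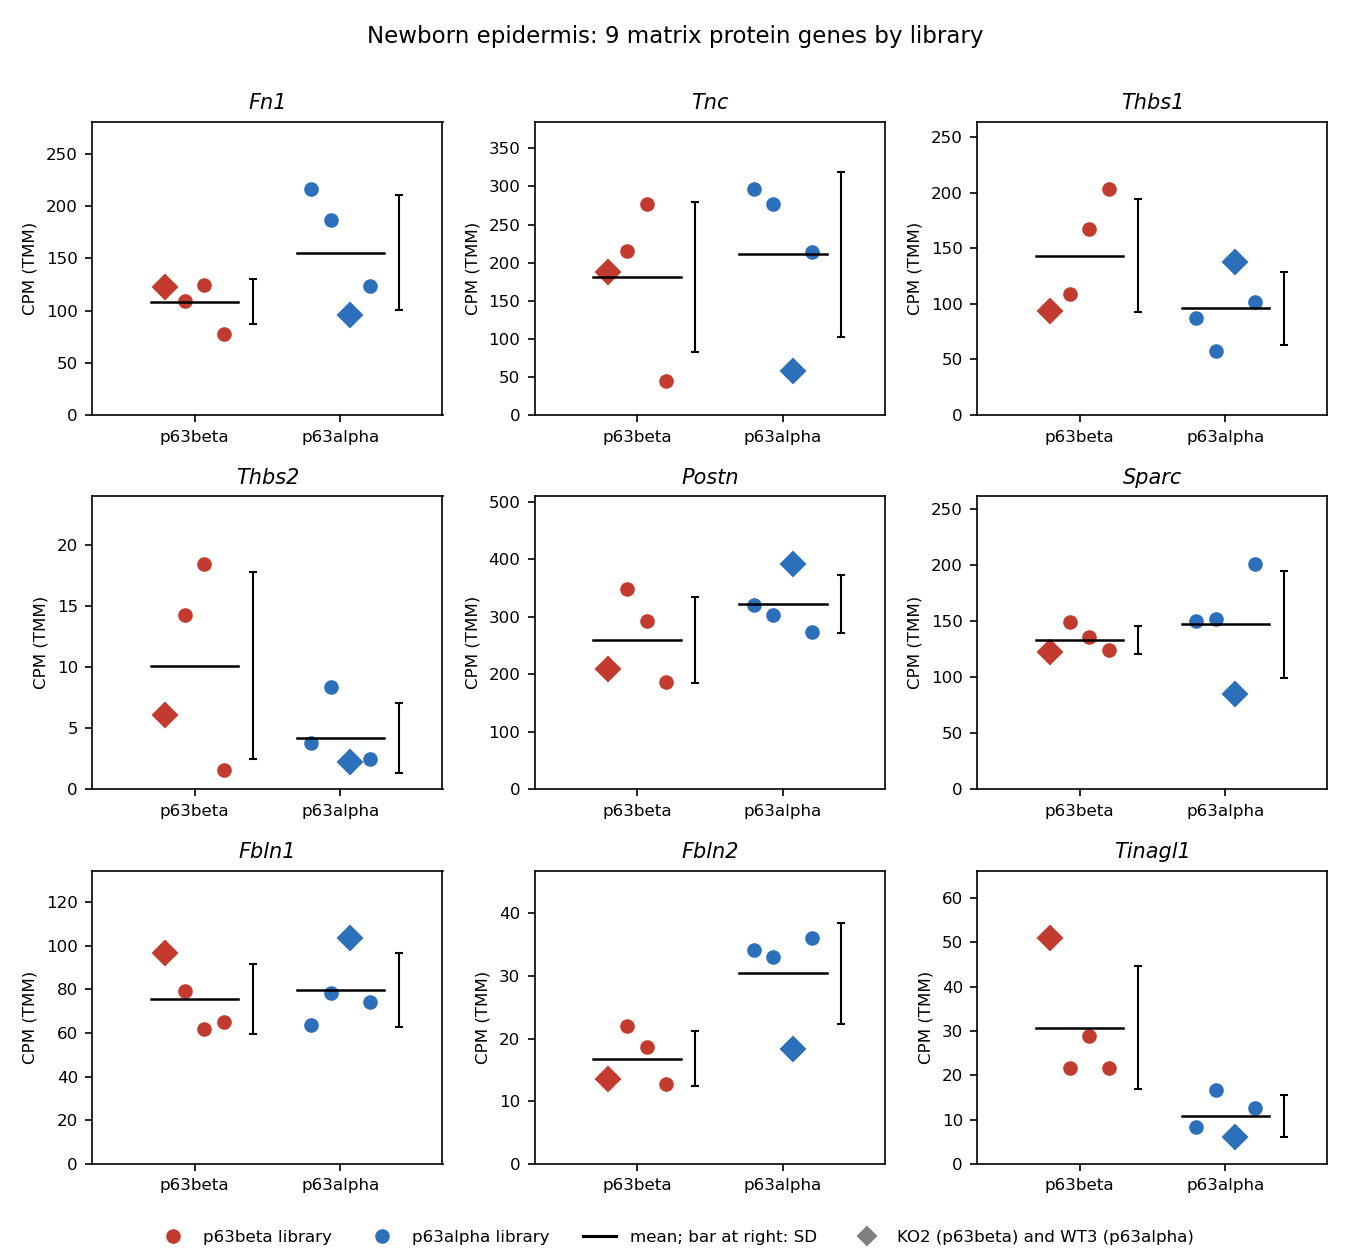
CPM (y axis) of each gene in the 4 p63beta and 4 p63alpha epidermis libraries; points are libraries, lines are means, bars are SD, and diamonds are KO2 and WT3, whose column names carry the other code. Tinagl1 separates the genotypes, from 21.6 to 51.0 CPM in p63beta and from 5.98 to 16.7 CPM in p63alpha, and in Fbln2 1 p63alpha library, WT3, falls among the p63beta values.

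Fbln2 is a fibulin that binds laminins, nidogen and fibronectin in basement membranes. In epidermis it had 13.6, 22.1, 18.6 and 12.7 CPM in p63beta (KO2, EP10, EP11, EP12), against 34.1, 33.1, 18.4 and 36.0 CPM in p63alpha (EP07, EP08, WT3, EP09). The other 3 p63alpha libraries lay above all p63beta libraries, and WT3 lay within the p63beta range. Fbln2 had a log2 fold change of -0.86 there (SE 0.26, 95% interval -1.44 to -0.28), with an unadjusted p of 0.00764 and an edgeR adjusted p of 0.589. It stayed negative in all 17 alternatives, from -1.04 to -0.75, with adjusted p from 0.142 to 1. In the 6 EP libraries it was -0.96 (adjusted p 0.434). The authors' deposited table lists -0.86 with an adjusted p of 0.157. The 10 fibroblast markers summed to 75.8 to 175 CPM in p63beta and 115 to 205 CPM in p63alpha, so the groups overlapped. KO2 of p63beta, at 175 CPM, lay above EP08 (167 CPM) and WT3 (115 CPM) of p63alpha. Of the 9 fibroblast markers tested, 2 had a positive log2 fold change, and the median was -0.77. EdgeR called 0 of them, with 1 at an unadjusted p under 0.05, beside 4.64% of all genes. The part of fibroblasts in the Fbln2 difference was not tested.

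In keratinocytes Fbln2 had 13.2, 25.3 and 37.0 CPM in p63beta replicates 1, 2 and 3, against 13.4, 14.2 and 17.0 CPM in p63alpha. Replicates 2 and 3 of p63beta lay above all p63alpha libraries and replicate 1 just below them. Its keratinocyte log2 fold change was 0.76 (SE 0.36, 95% interval -0.11 to 1.63, edgeR adjusted p 0.760). It was 0.36 without p63beta replicate 3 (adjusted p 0.999) and 0.65 with the replicate block (unadjusted p 0.0446, adjusted p 0.374). Without p63beta replicate 1, the lowest of them, it was 1.07 (adjusted p 0.266). The interaction, epidermis effect minus keratinocyte effect, was -1.60 (SE 0.45, unadjusted p 0.00310, adjusted p 1) with all libraries and -1.23 (unadjusted p 0.0125, adjusted p 0.9999) without p63beta replicate 3. The genes closest to Fbln2 over the 6 keratinocyte libraries, out of 10351 searched, were Fat1, Gstm2 and Hspg2. Their root-mean-square differences were 0.11 to 0.16 in centred log2 CPM, where Fbln2 itself had a root mean square of 0.55. Hspg2 encodes perlecan, a basement membrane proteoglycan.

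Fbln1, the related fibulin, was the steadiest member in culture. It had 27.6, 27.3 and 30.8 CPM in p63beta, against 27.8, 28.9 and 29.0 CPM in p63alpha. All 6 libraries lay close together and the groups overlapped. Fbln1 had a log2 fold change of -0.00 with a 95% interval of -0.21 to 0.21, so the interval leaves room for little change in either direction. In epidermis Fbln1 averaged 75.6 ± 15.9 CPM in p63beta and 79.8 ± 17.0 CPM in p63alpha (SD, n = 4 each), with a 95% interval of the log2 fold change from -0.52 to 0.36 (adjusted p 0.9999).

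Periostin, a ligand of integrins that is made mainly by fibroblasts and in wounds, rested on 1 library in culture. It had 3.11, 3.73 and 19.6 CPM in p63beta replicates 1, 2 and 3, against 3.37, 2.62 and 7.52 CPM in p63alpha replicates 1, 2 and 3. Replicate 3 was the highest of both genotypes, and the others overlapped. In p63beta replicate 3 it was 5.73 times the mean of the other p63beta libraries. For Postn this gave a log2 fold change of 0.97 (SE 0.82, adjusted p 0.918) with that library and -0.41 (SE 0.52, adjusted p 0.999) without it. The interaction was -1.29 (SE 0.76) with that library and 0.07 (SE 0.47) without it.

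The fibroblast markers had a like order in these libraries. Their sum was 52.97, 98.4 and 234 CPM in p63beta replicates 1, 2 and 3, against 53.1, 53.3 and 172 CPM in p63alpha. The 3 genes closest to Postn over these libraries were Phyh, Pfkm and Pdk2, and none of them is on the fibroblast list. Their root-mean-square differences from Postn were 0.28 to 0.39 in centred log2 CPM. Postn, Fbln2, Fn1, Sparc, Fbln1 and Thbs2 were each highest in p63beta replicate 3, which makes 6 of 9 members, beside 15.7% of all genes tested. Pericyte and smooth muscle markers also summed highest there, to 1904 CPM, with 1219 and 1649 CPM in p63beta replicates 1 and 2, against 789.5 to 1062 CPM in p63alpha. Every p63beta sum thus lay above every p63alpha sum. Of these 7 markers edgeR called 0, and their median log2 fold change was 0.86, and -0.02 without p63beta replicate 3. DESeq2 called 1 of 5 (Acta2, log2 fold change 0.96, adjusted p 0.0151), beside 1.53% of its genes. The part of such cells in these levels was not tested.

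**Figure D3:**
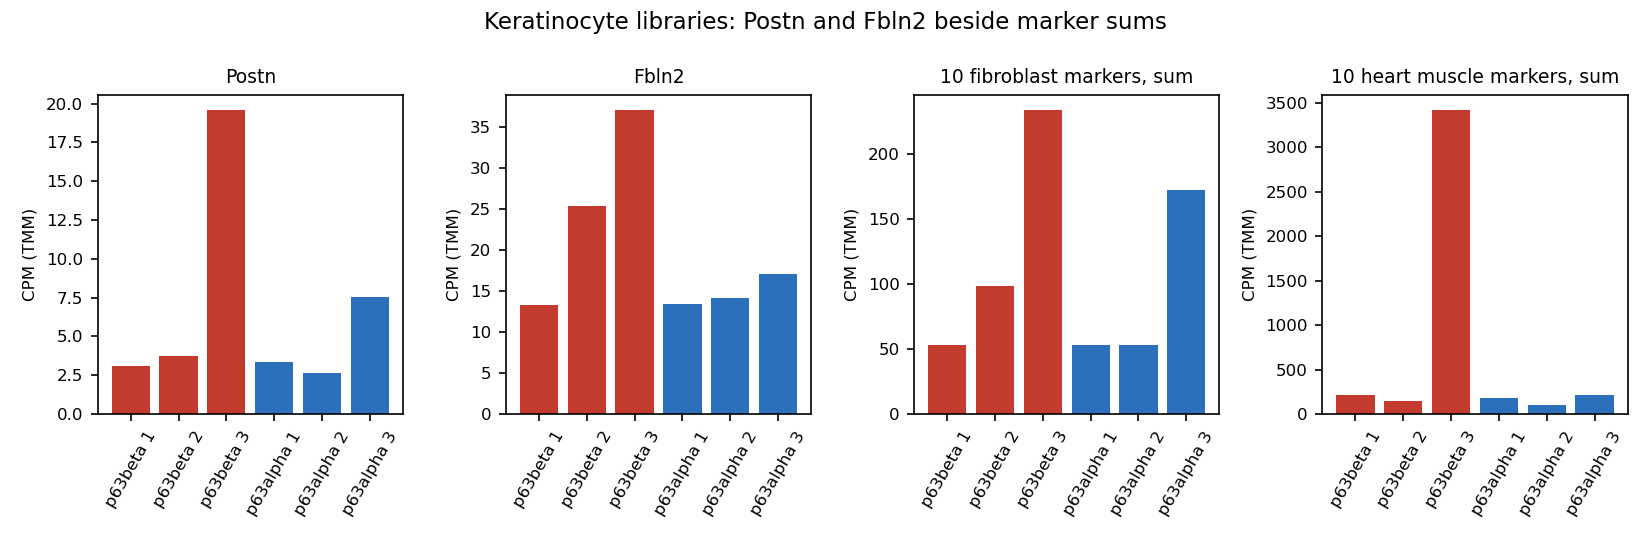
CPM (y axis) of Postn, Fbln2, the sum of 10 fibroblast markers and the sum of 10 heart muscle markers in the 3 p63beta and 3 p63alpha keratinocyte libraries. Each panel is highest in p63beta replicate 3, and the fibroblast sum is next highest in p63alpha replicate 3.

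In epidermis, where Postn was abundant, it had 209, 348, 293 and 186 CPM in p63beta, against 320, 303, 392 and 273 CPM in p63alpha. KO2 and EP12 of p63beta lay below all p63alpha libraries and the others within their range. Its epidermis log2 fold change was -0.31 (SE 0.22, 95% interval -0.80 to 0.17, adjusted p 0.9999). It was -0.49 without EP10 (unadjusted p 0.0467, edgeR adjusted p 0.999), -0.21 without WT3, -0.19 without EP12 and -0.12 in the 6 EP libraries.

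Fibronectin in keratinocytes had 548, 1048 and 1076 CPM in p63beta, against 976, 695 and 857.5 CPM in p63alpha. Replicate 1 of p63beta was the lowest library and replicates 2 and 3 the highest, so the groups overlapped. Fn1 had a log2 fold change of 0.08 (SE 0.28, 95% interval -0.60 to 0.76) and was -0.09 without p63beta replicate 3. In epidermis Fn1 had 123, 109.6, 125 and 77.7 CPM in p63beta, against 216, 187, 96.2 and 123 CPM in p63alpha. The p63alpha libraries EP07 and EP08 stood above the others and WT3 was low. Between genotypes the log2 fold change was -0.52 (SE 0.26, 95% interval -1.10 to 0.06), with an unadjusted p of 0.0752 and an edgeR adjusted p of 0.9999. It was -0.32 without EP07, -0.69 without WT3 (unadjusted p 0.0136, edgeR adjusted p 0.701) and -0.76 in the 6 EP libraries (unadjusted p 0.0176, edgeR adjusted p 0.935).

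The thrombospondins are multimeric proteins that bind Cd36, Cd47 and integrins, and thrombospondin 1 is known to activate latent TGF-beta. In keratinocytes Thbs1 had 2411, 4556 and 4193 CPM in p63beta, against 3998, 3496 and 3841 CPM in p63alpha. Again replicate 1 of p63beta was the lowest library and the other p63beta libraries were the highest. Its log2 fold change was -0.02 (SE 0.24, 95% interval -0.62 to 0.57), and without p63beta replicate 1 it was 0.21. Thbs1 was itself among the 3 genes closest to Fn1 over the 6 libraries, with a root-mean-square difference of 0.11 in centred log2 CPM, behind Fat2 and an unnamed gene. In epidermis Thbs1 had 93.9, 109, 168 and 203 CPM in p63beta, against 87.8, 57.9, 137 and 102 CPM in p63alpha. EP11 and EP12 lay above every p63alpha library, and KO2 and EP10 among them. On the log2 scale the difference was 0.58 (SE 0.30, 95% interval -0.09 to 1.25, edgeR adjusted p 0.9999). It became 0.36 without EP12 and 0.955 in the 6 EP libraries (95% interval 0.30 to 1.61, unadjusted p 0.0103, edgeR adjusted p 0.810).

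Thbs2 was near the detection limit in culture, at 1.43 to 3.57 CPM in p63beta and 2.32 to 3.24 CPM in p63alpha. Its counts were 36 to 102 per p63beta library and 49 to 78 per p63alpha library. Its log2 fold change of 0.09 had a wide 95% interval, -0.89 to 1.07, which leaves room for a change in either direction. Without p63beta replicate 2, the lowest library, it was 0.40 (SE 0.31). In epidermis it had 6.06, 14.3, 18.4 and 1.60 CPM in p63beta, against 3.76, 8.36, 2.21 and 2.45 CPM in p63alpha. EP10 and EP11 stood above all p63alpha libraries and EP12 was the lowest of the 8. Thbs2 had a log2 fold change of 1.27 with an SE of 0.67 (95% interval -0.23 to 2.76, edgeR adjusted p 0.9999). It ranged from 0.80 without EP11 to 1.85 without EP08 (unadjusted p 0.0253, edgeR adjusted p 0.980), and was 0.60 with limma on log2(TPM + 1). Without EP12 it was 1.62, with the smallest adjusted p of the alternatives (unadjusted p 0.01145, edgeR adjusted p 0.411). DESeq2 on all 8 libraries gave 1.27 (unadjusted p 0.0382, adjusted p 0.739). The authors' deposited table lists 1.27 with an adjusted p of 0.812.

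Tenascin C, which is known for its induction in wounds, varied more between libraries than between genotypes. In keratinocytes it had 833, 759 and 792.5 CPM in p63beta, against 1072, 455 and 643 CPM in p63alpha. The p63beta values lay within the p63alpha range. The log2 fold change was 0.14 (SE 0.30, 95% interval -0.59 to 0.87) and 0.13 without p63beta replicate 3. Without p63alpha replicate 1 it was 0.51 (unadjusted p 0.0229, edgeR adjusted p 0.2655), beside 15.1% of all genes with an unadjusted p under 0.05. In epidermis Tnc had 188, 215, 277 and 44.5 CPM in p63beta, against 296, 277, 57.6 and 214 CPM in p63alpha. EP12 of p63beta and WT3 of p63alpha were far below the other 6. The log2 fold change was -0.22 with an SE of 0.58, and it became 0.10 without EP12. Tnc overlaps an annotated non-coding gene, 8030451A03Rik.

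Sparc, a calcium-binding protein that binds collagens, had 428, 519 and 605 CPM in p63beta keratinocytes, against 526.5, 516 and 539 CPM in p63alpha keratinocytes. The p63beta libraries lay on both sides of the tight p63alpha values. The log2 fold change was -0.03 (SE 0.14, 95% interval -0.36 to 0.30) and -0.16 without p63beta replicate 3. In epidermis Sparc averaged 133 ± 12.3 CPM in p63beta and 147 ± 47.4 CPM in p63alpha (SD, n = 4 each), and all p63beta values lay inside the p63alpha range. The log2 fold change there was -0.14 (SE 0.23, edgeR adjusted p 0.9999). The gene closest to Sparc over the 8 epidermis libraries was Lama3, which encodes a chain of laminin-332, with a root-mean-square difference of 0.09. Parva (0.11) and Luc7l2 (0.12) followed.

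**Figure D4:**
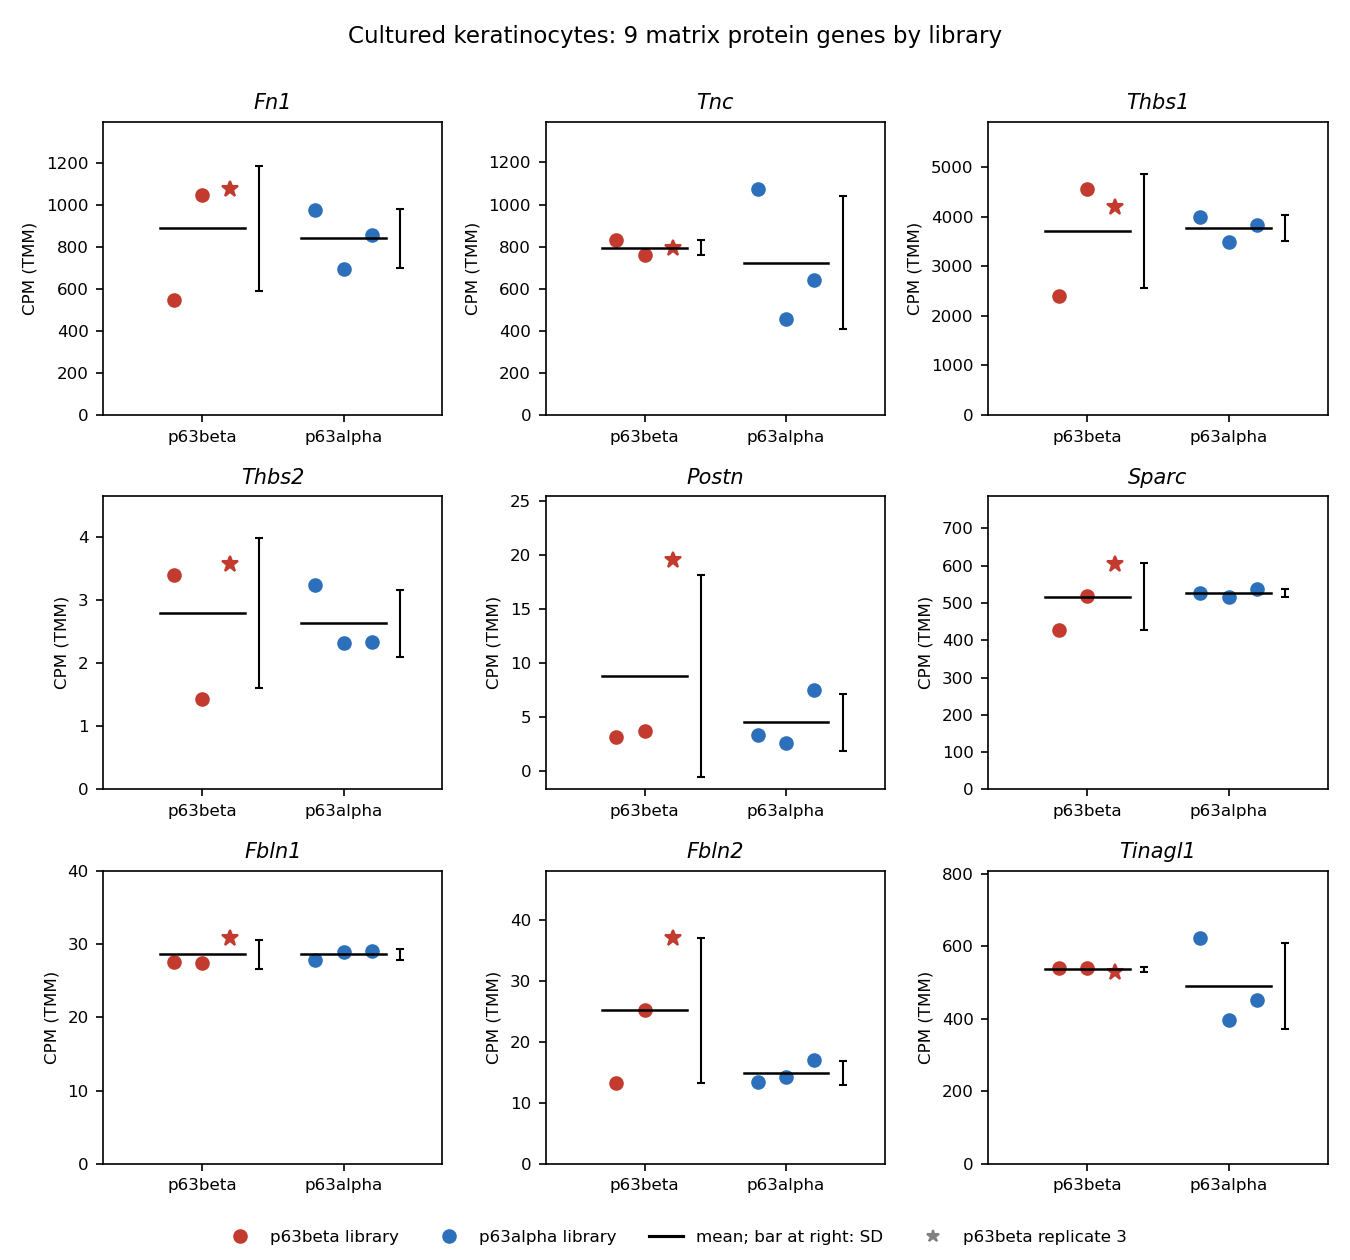
CPM (y axis) of each gene in the 3 p63beta and 3 p63alpha keratinocyte libraries; points are libraries, lines are means, bars are SD, and the star is p63beta replicate 3. The groups overlap in all 9 genes, and Postn in p63beta replicate 3, at 19.6 CPM, is above the next library, at 7.52 CPM.

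In keratinocytes 0 of 9 members had groups without overlap, beside 12.3% of all genes tested. With all libraries 6 had a positive log2 fold change, and 3 (Tnc, Fbln2, Tinagl1) had one without p63beta replicate 3. In epidermis 3 members (Thbs1, Thbs2, Tinagl1) had a positive log2 fold change and 6 a negative one. EP12 was the lowest library of the 8 for 5 members, which were Fn1, Tnc, Thbs2, Postn and Fbln2, beside 17.4% of all genes tested.

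The make-up of the members' transcripts in epidermis was compared between genotypes by shares of TPM. For the leading transcript of the 5 members with more than 1 transcript above 0, two-sided exact permutation tests gave p-values of 0.229 to 0.971 and adjusted p-values of 0.971 each. The smallest p that 4 libraries against 4 allow is 0.0286, and a single share at that p would have an adjusted p of 0.143 over the 5 transcripts. At least 3 of the 5 would have had to reach it together to pass the threshold. By alternative exon, a comparison added after the data had been seen, 8 shares were tested and the smallest adjusted p was 0.533 by exact permutation. There a single share could reach 0.229, and 5 of the 8 would have had to reach the smallest p together.

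The EDA exon was in 36.7% ± 5.54 of Fn1 TPM in p63beta and 45.5% ± 8.36 in p63alpha (SD, n = 4 each, two-sided exact permutation p 0.171). By library it was in 42.7%, 32.6%, 40.0% and 31.3% in p63beta, against 54.1%, 38.4%, 51.2% and 38.3% in p63alpha. EP07 and WT3 of p63alpha were the highest, and the groups overlapped. The EDB exon, another optional type III repeat, was in 4.66% ± 2.06 in p63beta and 7.66% ± 2.34 in p63alpha (exact permutation p 0.114, n = 4 each). The longest form of the variable region, which holds the sites for integrin alpha 4, made up 59.5% ± 16.1 in p63beta and 72.4% ± 13.4 in p63alpha (exact permutation p 0.286, n = 4 each). The lowest shares of that form were 36.2% in EP12 of p63beta and 54.6% in WT3 of p63alpha.

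The 81-base exon of Postn varied most between libraries. It was in 19.5%, 17.0%, 13.6% and 64.6% of Postn TPM in p63beta, against 31.7%, 12.5%, 46.8% and 46.7% in p63alpha. EP12 was far above the other p63beta libraries, and the groups overlapped (exact permutation p 0.771, n = 4 each). The 84-base exon was in 12.95% ± 2.89 in p63beta and 13.98% ± 4.35 in p63alpha. The optional exon of Fbln2 was in 23.7%, 16.6%, 28.96% and 31.4% of its TPM in p63beta, against 23.5%, 25.6%, 37.1% and 13.7% in p63alpha. The highest and the lowest of these shares were both in p63alpha, and the exact permutation p was 0.971 (n = 4 each). These shares are estimates by the authors' software from short reads, and their error within a library is not known here.

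**Figure D5:**
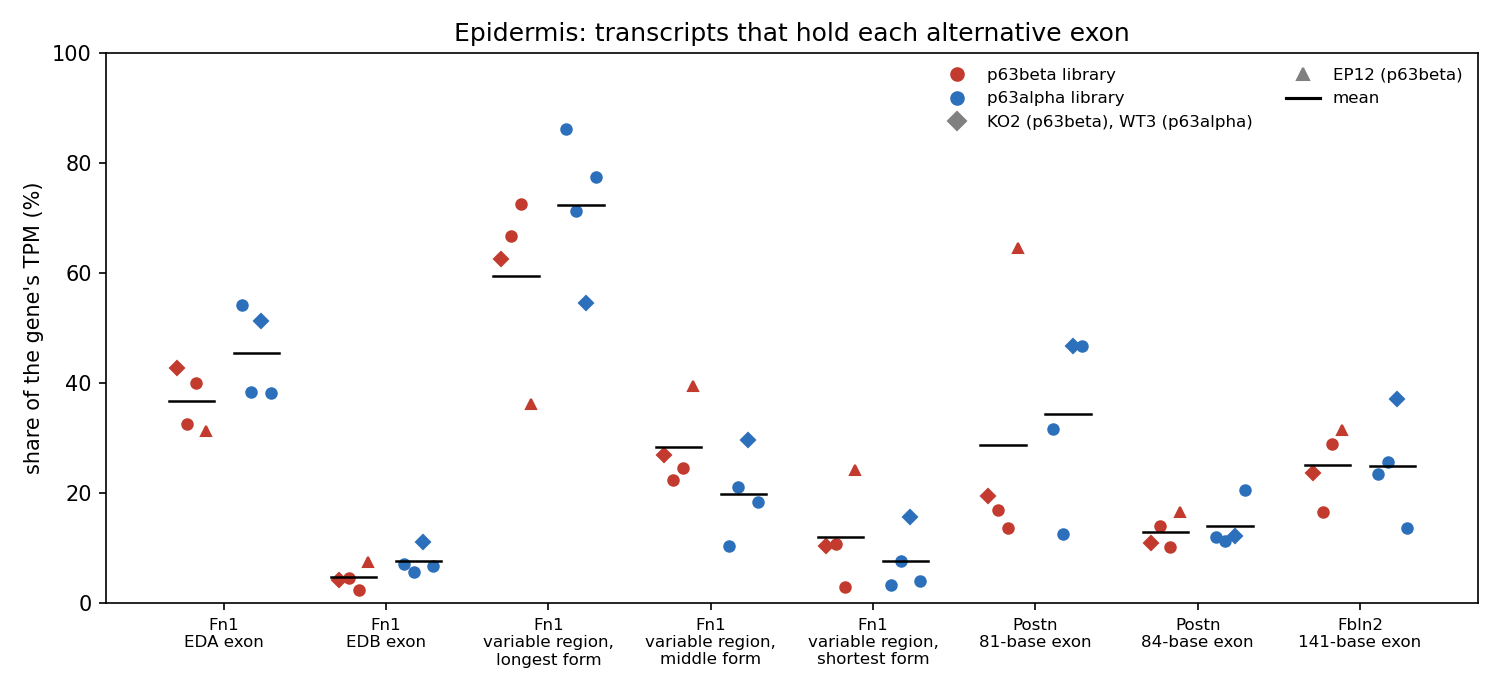
Share of each gene's TPM (y axis, percent) from transcripts that hold each alternative exon or form, for the 4 p63beta and 4 p63alpha epidermis libraries, with black lines at the means. The groups overlap for all 8 shares, and EP12 stands apart in the Postn 81-base exon at 64.6%.

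Other genes of the pathway were set beside the members. Of 55 other matrix glycoproteins, 39 were tested in keratinocytes by edgeR and 0 were called. At an unadjusted p under 0.05 were 4, beside 6.85% of all genes. DESeq2 called 1 of 40 (Hmcn2), beside 1.53% of its genes. The log2 fold changes of the 39 were positive in 23 and had a median of 0.06, and -0.04 without p63beta replicate 3. The examples with the lowest p were Hmcn2 and Hmcn1, which encode hemicentins, Fbln5, Fndc1 and Ctgf. Hmcn2, with the lowest p, had 4.87 to 5.79 CPM in p63beta and 1.62 to 2.33 CPM in p63alpha, a log2 fold change of 1.46 (SE 0.24, edgeR adjusted p 0.205). In epidermis 37 were tested by edgeR, which called 0 and gave 6 an unadjusted p under 0.05, beside 4.64% of all genes. Of the 37, 20 were positive, with a median of 0.07. DESeq2 called 2 of 44 (Mfge8 and Vwa1), beside 0.987% of its genes. The lowest p was that of Mfge8, a secreted protein that binds phosphatidylserine and integrins, at 40.9 ± 9.22 CPM in p63beta and 20.3 ± 4.50 CPM in p63alpha (log2 fold change 1.01, SE 0.22, edgeR adjusted p 0.176). Vwa1, Spock2, Cyr61 and Fbln5 followed.

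Among 16 integrins and other receptors of these proteins, 15 were tested in keratinocytes and 16 in epidermis, with 0 called by edgeR in either. At an unadjusted p under 0.05 were 2 and 1, beside 6.85% and 4.64% of all genes. DESeq2 called 1 of 15 in keratinocytes (Itga3) and 0 of 16 in epidermis, beside 1.53% and 0.987% of its genes. In keratinocytes 11 were positive and the median log2 fold change was 0.26, and 0.19 without p63beta replicate 3. Itga3, a subunit of the laminin receptor, had the lowest p. It had 1464 ± 176 CPM in p63beta and 926 ± 165 CPM in p63alpha (SD, n = 3 each). It had a log2 fold change of 0.66 (edgeR adjusted p 0.448, SE 0.17). Cd36, a thrombospondin receptor, averaged 27.3 CPM in p63beta and 6.77 CPM in p63alpha keratinocytes, but its log2 fold change of 2.02 became -0.06 without p63beta replicate 3. In epidermis 9 receptors were positive, the median was 0.05 and Itga8, which pairs with Itgb1, had the lowest p (log2 fold change -0.99, adjusted p 0.9999). Of 12 genes for TGF-beta ligands, receptors, Smads and targets, all were tested and 0 were called by edgeR or DESeq2 in both systems. At an unadjusted edgeR p under 0.05 were 2 in keratinocytes and 0 in epidermis, beside 6.85% and 4.64% of all genes. The median of the 12 was 0.08 in keratinocytes, with 9 positive, and -0.03 in epidermis, with 6 positive. Smad7, an inhibitor of the pathway, had the lowest p in keratinocytes (edgeR adjusted p 0.517). It had 47.6 ± 4.37 CPM in p63beta and 36.4 ± 3.16 CPM in p63alpha there (SD, n = 3 each).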

How the data were processed

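The keratinocyte table holds whole fragment counts by RefSeq gene, which per the file headers come from featureCounts, and a second deposited table holds FPKM. The deposited FPKM, recomputed from counts and lengths, differed by at most a relative 2.8e-07. For epidermis the authors deposited estimated counts and TPM per gene and per transcript, from Salmon per the submitters' processing notes. The genome build was mm10 per those notes. The authors' deposited result tables hold log2 fold changes and adjusted p-values from DESeq2, with signs that run p63beta over p63alpha, and their 14 per-library columns were not used. A blank row of the keratinocyte table was dropped.

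Each system was fitted on all its genes with edgeR 4.0.16 in R 4.3.3 (TMM, filterByExpr, robust quasi-likelihood F test, adjustment by Benjamini and Hochberg over all genes tested, call at 0.05). Estimated counts were rounded to whole numbers first. The interaction used all 14 libraries and the 23394 genes of both tables that share an Entrez ID. Log2 CPM for the closest genes had a prior count of 2 and genes of at least 5 CPM. The closest 3 were picked from 10351 genes in keratinocytes and 10291 in epidermis for every member. They are named for some members only, and their closeness was not tested. The scripts were tested on simulated data. DESeq2 1.42.0 and limma 3.58.1 (log2 of FPKM or TPM plus 1 or 0.1, with and without a filter at 1) were alternatives, as were RLE factors, no count filter, no robust estimation, leaving out each library, a replicate block, and the code in epidermis column names. Transcript shares were compared with two-sided exact permutation tests in scipy 1.17.1.

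Epidermis columns were assigned to a genotype by their WT or KO names, and they carry no replicate number of the labels. Same-numbered keratinocyte libraries deviated together from their group means, with correlations of 0.6, 0.503 and 0.204 for numbers 1, 2 and 3. Differently numbered libraries had correlations of -0.515 to 0.192, so number 3 hardly stood out. The labels do not say that the numbers pair libraries. The main keratinocyte fit therefore had no replicate block, and the block was an alternative. The members, the lists and the rule that names all 9 members, up to 5 examples per list and 3 closest genes were chosen with earlier results of these data known.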

Additional observations from a re-analysis of the deposited data

Results flagged for a closer look

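Fbln2 in p63alpha epidermis had 1 library apart from the others. WT3 had 18.4 CPM, against 33.1 to 36.0 CPM in EP07, EP08 and EP09. Its gap to the nearest of them was 0.833 of the group's range, above Dixon's 95% critical value for 4 libraries. Chance marks about 1 group in 20 in this way. Without WT3 the log2 fold change of Fbln2 was -1.04, with an edgeR adjusted p of 0.175, and with it -0.86.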

How the results depend on the processing

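Of the counts of members called, 1 changed with the processing: DESeq2 gave 1 called member in epidermis (Tinagl1), where edgeR gave 0. The replicate block gave 0 called members in keratinocytes, as did the fit without it, and changed no call. No member changed sign under RLE factors, no count filter, no robust estimation, DESeq2 or limma. With the replicate block and both libraries numbered 3 left out, Fn1 (-0.12) and Thbs2 (-0.30) turned negative in keratinocytes. Leaving out each library in turn gave 0 called members throughout. The share of all genes called was also low in these fits, so 0 members says little about the members. It was 0.00699% to 0.028% in keratinocytes, 0.0716% to 0.2% in epidermis and 0% for the interaction. The log2 fold changes in keratinocytes then ranged from -0.085 to 0.33 for Fn1 (negative without p63alpha replicate 2, p63beta replicate 2 or p63beta replicate 3), -0.11 to 0.51 for Tnc (negative without p63alpha replicate 2), -0.20 to 0.21 for Thbs1 (positive without p63alpha replicate 1 or p63beta replicate 1), -0.14 to 0.40 for Thbs2 (negative without p63beta replicate 1 or 3), -0.41 to 1.56 for Postn (negative without p63beta replicate 3), -0.16 to 0.0926 for Sparc (positive without p63beta replicate 1), -0.0693 to 0.0266 for Fbln1 (positive without any 1 of 4 libraries) and -0.0002 to 0.32 for Tinagl1 (negative without p63alpha replicate 2). In epidermis they ranged from -0.54 to 0.10 for Tnc (positive without EP12), -0.34 to 0.0429 for Sparc (positive without EP09) and -0.22 to 0.072 for Fbln1 (positive without EP11 or WT3). The epidermis minus keratinocyte difference ranged from -1.85 to 0.0695 for Postn (positive without p63beta replicate 3), -0.29 to 0.0784 for Sparc (positive without EP09 or p63beta replicate 3) and -0.22 to 0.10 for Fbln1 (positive without EP11, EP12 or WT3). The cause was not tested. Shares of estimated counts in place of TPM, and shares by alternative exon, gave 0 called shares. With 1 epidermis library left out the smallest exact p is 0.0571, and with the EP libraries alone 0.1, so those shares could not pass the threshold. With all 8, no single share could pass after adjustment. Counts were lowest for Thbs2, which had 36 to 102 counts per keratinocyte library.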
